A study of Mus musculus with 4 samples.

Results

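RYBP occupancy was read at the genes of the GATA transcription factors (Gata1, Gata2, Gata3, Gata4, Gata5 and Gata6) and of both FOG cofactors (Zfpm1, which encodes FOG1, and Zfpm2, which encodes FOG2). These 8 genes were chosen by family, were located by symbol in the GENCODE annotation of mouse build mm9, and stand among 22225 protein-coding genes read in the same way. Each locus ran from 5 kb upstream of the annotated 5′ end of the gene to its 3′ end. The series holds 4 wild-type samples of FLK1+ mesoderm from embryoid bodies of mouse embryonic stem cells of mixed C57Bl/6 X Sv129 background, labelled day 3.75 of differentiation. Of these, 2 were precipitated with an antibody to DEDAF, another name for RYBP, and 2 were input chromatin, which was not analysed here. All carry the same genotype, stage and sort, so there was no contrast of conditions, and occupancy was described across genes with no test. Embryoid bodies are cultured aggregates and the sort takes a mixed mesodermal population, so a peak seen in a share of the cells and a weaker one in all of them cannot be told apart. The files hold peak positions and no expression values, and the labelled cell type could not be checked against its markers.

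GATA factors are zinc finger proteins that bind short DNA sites with the core GATA. Gata1 drives the erythroid and megakaryocytic programmes, Gata2 acts in haemogenic endothelium and in blood stem and progenitor cells, and Gata3 is best known for T cells, whereas Gata4, Gata5 and Gata6 act in heart and endoderm. FOG proteins dock on a zinc finger of a GATA factor and bring in corepressors such as NuRD and CtBP. RYBP is a subunit of the non-canonical form of Polycomb repressive complex 1, which places ubiquitin on histone H2A, and Polycomb complexes are known for wide domains over CpG-rich starts of developmental genes that are held silent.

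RYBP regions were found at 7 of the 8 genes, and Gata1 was the one without any. Gata2 stood apart at the upper end, with nearly its whole locus under RYBP. Gata3, Gata4, Gata5, Gata6 and Zfpm1 carried 24.0% to 42.5% of their loci under merged regions, and Zfpm2 carried a single region at its first start. Merged regions are the union of the peaks of both replicates. Their occurrence at 7 of 8 members compares with 57.0% of all protein-coding loci. A merged region with a peak from each replicate lay at the same 7 members, against 38.9% of all loci. The counts at transcript starts were also 7 of 8, with 54.0% of all genes having a merged region within 2.5 kb of an annotated start and 37.2% having one found in both replicates there.

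The members differed from the bulk of genes more in the extent of RYBP than in its presence. The median member had 29.6% of its locus under merged regions, and the median over all 22225 genes was 0.783%. Among loci with any region, these medians were 31.3% for the 7 members and 3.58% for the 12678 genes. Members also had longer loci, with a median of 38042 bp against 20532 bp. Within a fixed window of 5 kb on each side of the annotated 5′ end, which takes locus length out, the median was 48.1% for members and 3.09% for all genes. With the peaks of replicate 1 alone these medians were 32.4% and 0, and with those of replicate 2 alone 39.4% and 2.00%. Merged regions covered at least 20% of a locus at 1522 genes, or 6.85%, and single replicates did so at 1013 and 1107 genes.

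**Figure D1:**
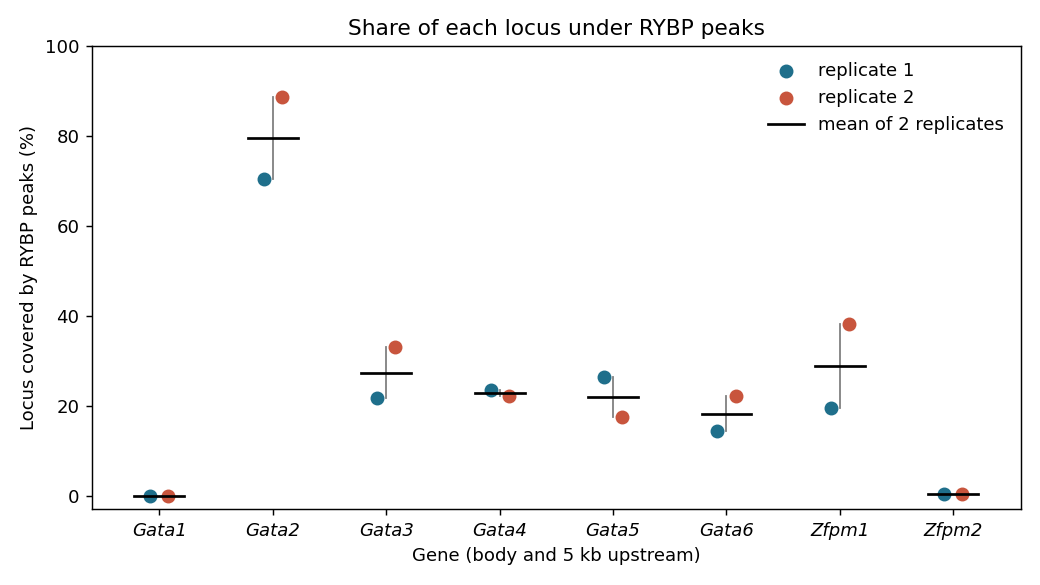
Share of each locus (gene body and 5 kb upstream) under RYBP peaks, in percent, by gene; points are the 2 ChIP replicates and the black bar is their mean. Gata2 lies at 70.5% and 88.6%, Gata1 at 0 in both replicates, Zfpm2 under 1%, and the other 5 genes between 14.3% and 38.1%.

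Ordered by the mean of the replicates, Gata2 came first at 79.6% ± 12.8 (SD, n = 2), with 70.5% in replicate 1 and 88.6% in replicate 2. Zfpm1 followed at 28.7% ± 13.2, with 19.4% and 38.1%. Gata3 had 27.4% ± 7.95, with 21.7% and 33.0%. These values leave a wide gap below Gata2, whose lower replicate exceeded every value of the other genes. Gata4 had 22.9% ± 1.04, with 23.6% and 22.2%. Gata5 had 21.9% ± 6.36, with 26.4% and 17.4%. Gata6 had 18.3% ± 5.54, with 14.3% and 22.2%. From Zfpm1 down to Gata6, each gene's replicate range overlapped that of its neighbour, and these 5 genes could not be ranked within their spread. Zfpm2 had 0.387% ± 0.0689, with 0.338% and 0.436%, and Gata1 had 0 in both replicates. The covered share was higher in replicate 2 at 5 of the 7 occupied members, and at 58.5% of the 8987 loci with peaks in both replicates.

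**Figure D2:**
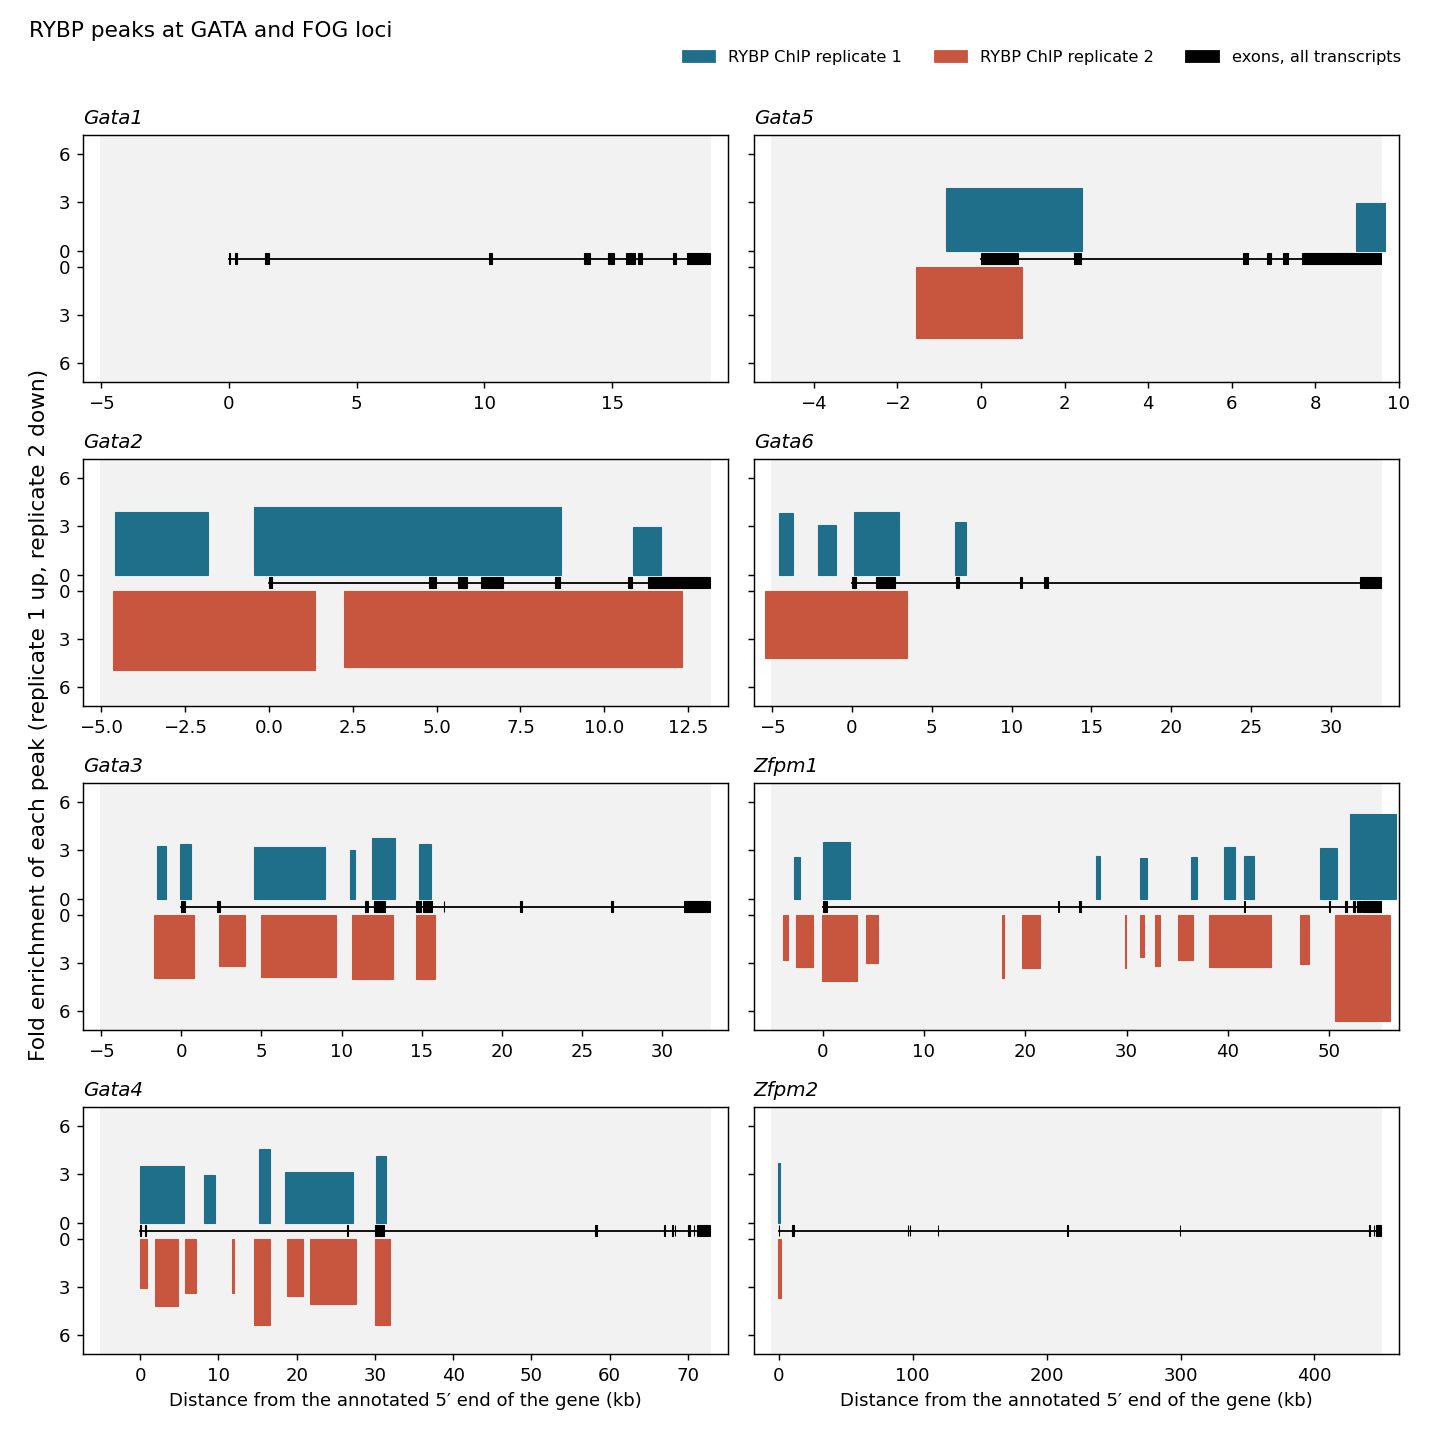
Maps of the 8 loci, with distance in kb from the annotated 5′ end of the gene on the x axis (transcription runs to the right) and the fold enrichment of each peak as bar height, replicate 1 upward in blue and replicate 2 downward in red; grey shading marks the locus and black boxes the exons of all transcripts. Peaks span almost all of Gata2, the 5′ parts of Gata3, Gata4, Gata5 and Gata6, both ends of Zfpm1 and the first start of Zfpm2, and none are drawn at Gata1.

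Transcript starts separated into occupied and unoccupied ones in a way that ran with CpG content. The annotation gives 24 distinct starts for the 8 genes, and 15 of them had their start base inside a merged region. CpG density was counted in the 250 bases upstream of each start on the mm9 reference, where the median of 22220 protein-coding genes was 3.20 CpG per 100 bases. All 12 member starts with at least 3 CpG per 100 bases lay in a merged region, whereas 3 of the 12 starts below that did. Of the 24 start bases, 11 were under peaks of replicate 1 and 15 under those of replicate 2. The starts under replicate 2 peaks only were Gata3-001, Gata6-201 and Zfpm1-201 above that density, and Gata4-006 below it. The 9 starts outside any region ranged from 0 to 2.80, and the 15 inside ranged from 0.400 to 11.6. Among the 9 outside, the Gata3 starts lay 9 to 522 bp from a region. A region lay within 2.5 kb of 18 of the 24 starts, so the split depends on the use of the start base. Several windows of 1 gene overlap, so these starts are not independent. Over all genes, a merged region lay within 2.5 kb of a start at 11.3% of genes with under 1 CpG per 100 bases, 38.7% with 1 to 3, 70.8% with 3 to 6, and 86.3% with 6 or more. By the stricter measure used for the members, the annotated 5′ end of a gene lay inside a merged region at 60.7% of genes with at least 3 CpG per 100 bases and at 8.17% of genes below that. The same counts for the annotated 5′ ends of the members were 5 of 5 and 2 of 3, the latter being Gata3 and Gata4. These counts use merged regions, and the 5′ ends of Gata4, Gata6 and Zfpm1 lay under replicate 2 peaks only.

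The sequences printed here, read from the mm9 (NCBIM37) reference 5′ to 3′ on the strand of the gene, show this contrast for starts on which the results turn, and add the most CpG-dense 250 bases of coding sequence under the strongest Zfpm1 region. Capitals mark CpG dinucleotides. The Gata1-001 window holds 2 CpG and lies in no region, and the Zfpm2-203 window holds 0 and lies in none either. By contrast, the Gata2-201 window holds 24, Gata4-002 holds 26, Zfpm1-201 holds 27 and Zfpm2-201 holds 21, and each of these starts lies in a merged region. The Gata2-201, Gata4-002 and Zfpm2-201 windows lie wholly in a region. Of the Zfpm1-201 window 22.4% does, and its start base is under a replicate 2 peak only. The window of Gata4-004 and Gata4-005 is an exception, with 1 CpG and a start inside a region.
Gata1-001 upstream, chrX:7545037-7545286, minus strand: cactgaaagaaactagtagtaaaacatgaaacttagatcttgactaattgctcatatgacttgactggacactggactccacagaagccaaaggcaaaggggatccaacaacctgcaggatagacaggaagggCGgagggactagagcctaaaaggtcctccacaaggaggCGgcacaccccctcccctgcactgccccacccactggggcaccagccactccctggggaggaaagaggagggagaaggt
Gata2-201 upstream, chr6:88148408-88148657, plus strand: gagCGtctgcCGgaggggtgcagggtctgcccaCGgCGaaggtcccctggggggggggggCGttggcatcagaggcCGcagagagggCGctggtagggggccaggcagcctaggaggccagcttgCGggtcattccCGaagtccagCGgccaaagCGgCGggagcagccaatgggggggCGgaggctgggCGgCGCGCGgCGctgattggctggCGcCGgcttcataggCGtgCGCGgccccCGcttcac
Gata4-002 upstream, chr14:63864109-63864358, minus strand: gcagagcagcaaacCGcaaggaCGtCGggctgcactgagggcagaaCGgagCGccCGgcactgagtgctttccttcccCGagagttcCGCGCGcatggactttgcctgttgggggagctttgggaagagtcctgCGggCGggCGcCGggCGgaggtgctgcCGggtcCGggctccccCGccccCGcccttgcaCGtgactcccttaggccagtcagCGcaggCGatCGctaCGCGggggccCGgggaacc
Gata4-004 and Gata4-005 upstream, chr14:63889962-63890211, minus strand: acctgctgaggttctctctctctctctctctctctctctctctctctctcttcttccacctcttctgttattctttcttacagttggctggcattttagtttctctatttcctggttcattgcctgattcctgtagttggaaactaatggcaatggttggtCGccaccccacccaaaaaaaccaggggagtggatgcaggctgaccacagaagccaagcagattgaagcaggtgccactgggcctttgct
Zfpm1-201 upstream, chr8:124805789-124806038, plus strand: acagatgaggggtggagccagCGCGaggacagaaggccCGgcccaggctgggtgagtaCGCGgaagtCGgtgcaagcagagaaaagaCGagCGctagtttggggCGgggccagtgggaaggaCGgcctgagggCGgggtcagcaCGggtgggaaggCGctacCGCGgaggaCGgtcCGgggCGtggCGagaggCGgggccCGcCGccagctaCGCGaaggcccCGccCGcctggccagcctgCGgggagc
Zfpm1 exon 10 coding stretch, chr8:124859942-124860191, plus strand: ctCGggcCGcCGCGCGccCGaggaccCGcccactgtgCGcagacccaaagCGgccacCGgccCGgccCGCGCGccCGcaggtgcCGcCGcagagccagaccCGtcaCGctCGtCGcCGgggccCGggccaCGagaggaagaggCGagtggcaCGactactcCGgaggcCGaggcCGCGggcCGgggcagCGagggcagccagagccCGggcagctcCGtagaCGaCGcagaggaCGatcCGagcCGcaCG
Zfpm2-201 upstream, chr15:40486338-40486587, plus strand: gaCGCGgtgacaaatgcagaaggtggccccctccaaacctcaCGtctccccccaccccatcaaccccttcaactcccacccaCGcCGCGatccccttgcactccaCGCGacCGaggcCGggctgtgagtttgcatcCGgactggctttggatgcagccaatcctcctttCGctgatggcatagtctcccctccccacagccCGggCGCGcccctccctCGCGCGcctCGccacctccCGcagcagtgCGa
Zfpm2-203 upstream, chr15:40496286-40496535, plus strand: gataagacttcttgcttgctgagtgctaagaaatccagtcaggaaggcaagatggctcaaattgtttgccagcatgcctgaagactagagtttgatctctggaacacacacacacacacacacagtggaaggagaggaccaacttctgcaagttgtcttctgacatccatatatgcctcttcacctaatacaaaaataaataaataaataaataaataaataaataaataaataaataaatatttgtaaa

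**Figure D3:**
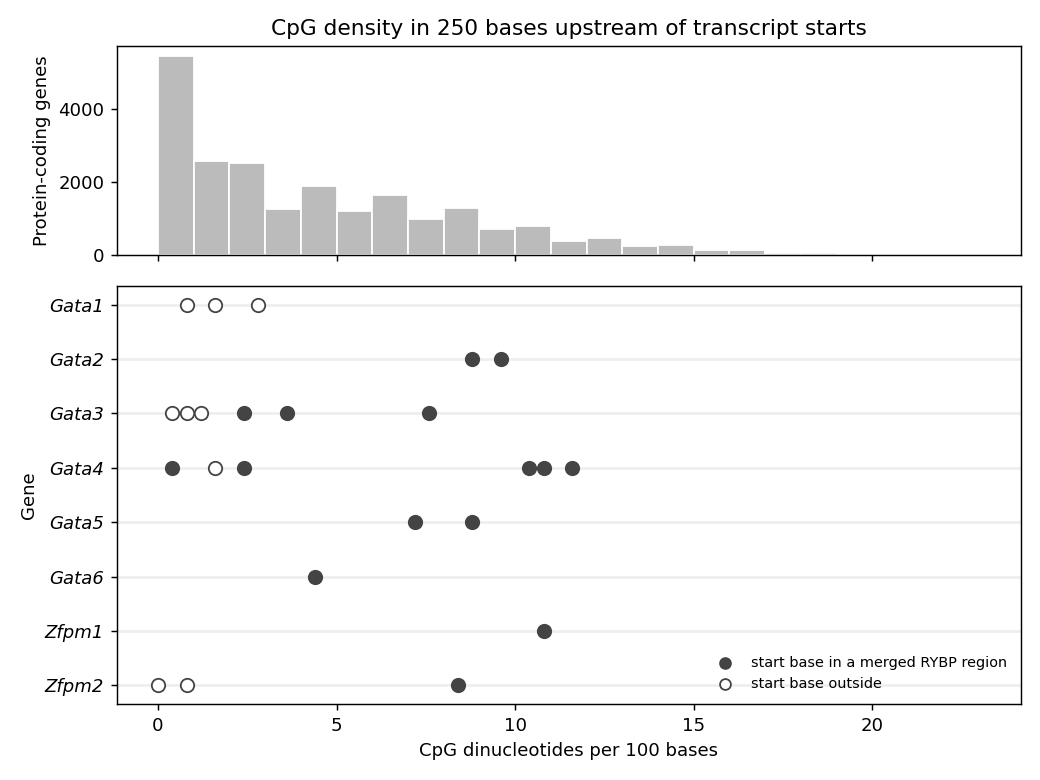
CpG dinucleotides per 100 bases in the 250 bases upstream of transcript starts: upper panel, number of protein-coding genes per bin; lower panel, the 24 starts of the 8 genes, filled where the start base lay in a merged RYBP region and open where it did not. All 12 starts at 3 or above are filled, and 9 of the 12 below 3 are open. Gata3-001, Gata4-006, Gata6-201 and Zfpm1-201 are filled through replicate 2 peaks only.

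A search of the same windows for GATA sites on both strands used the letters AGATAN, and likewise the letters TGATAN, where N stood for A or G. Such a site occurred upstream of 2 of the 24 member starts, 1 of them occupied (Gata4-006) and the other not (Gata1-003). Over all promoters of this length, 25.2% held at least 1 site. A match of letters is a description and not evidence of binding.

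Among the GATA genes of blood, Gata1 (chrX:7536386-7555197, minus strand) had no peak in either replicate, neither in its 23.8 kb locus nor near its 3 starts. The nearest merged region, at chrX:7504998-7505223, lay 31.2 kb from the locus over Eras and came from replicate 2 alone, with a fold enrichment of 3.63. The windows upstream of the 3 Gata1 starts held 2.80, 0.800 and 1.60 CpG per 100 bases. Gata1 is the sole X-linked member, and X-linked genes carried few regions in these lists. Of 927 X-linked protein-coding loci, 19.6% had a merged region, compared with 58.7% of autosomal loci. At 1 to 3 CpG per 100 bases, the class of the annotated 5′ end of Gata1, a region lay at the start of 13.9% of X-linked genes. Below 1 CpG per 100 bases, where the Gata1-001 window falls, this share was 3.32%. The classes were set by the window at the annotated 5′ end of each gene. Gata1-001 is an internal start, so the latter share is not a background for it. The part of the chromosome and of base composition in the empty Gata1 locus was not tested. Peak lists hold calls above a threshold, so an empty locus means no call and not an absence of RYBP.

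Gata2 (chr6:88143885-88157024, plus strand) lay under 1 unbroken merged region of 16949 bp, chr6:88139236-88156184. It began 4649 bp upstream of the annotated 5′ end and took in both starts, the first 5 of the 6 exons of the reference transcript, and the stop codon in the last exon, whose 3′ end lay outside. Of the 18.1 kb locus, 93.4% was under this region, a share exceeded by few genes, since 99.8% of protein-coding genes had less and Gata2 ranked 40 of 22225. With single replicates it ranked 101 and 24. Merged regions covered at least 90% of a locus at 55 genes, and the peaks of single replicates at 34 and 18. Replicate 1 had 3 peaks here, of 2784, 9151 and 856 bp, and replicate 2 had 2, of 6029 and 10043 bp. Both replicates thus covered most of the gene, but they placed the gaps at different points, and 70.3% of the region was under peaks of both. The highest fold enrichment of a peak, the ratio of pile-up to local background from the authors' caller, reached 4.20 and 4.94 in replicates 1 and 2 (4.57 ± 0.525, SD, n = 2), above 88.7% and 89.9% of all peaks of each list. Gata2 was therefore extreme in width and less so in fold enrichment. The lists hold 1 fold enrichment for each peak, so a high point within a wide peak cannot be read from them.

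Gata3 (chr2:9778705-9811661, minus strand) had 5 merged regions, of which 4 were found in both replicates. They lay in the 5′ part of the gene, from 1692 bp upstream of the annotated 5′ end to 15840 bp downstream of it. The regions overlapped exons 1 to 3 of the 6 exons of the reference transcript, and no region lay on exons 4 to 6. The region over exons 1 and 2, chr2:9798354-9801148, had fold enrichments of 3.78 and 3.98 in replicates 1 and 2. The widest, chr2:9802033-9807148 of 5116 bp, reached 3.23 and 3.90. The distal pair of starts lay in a region of 2476 bp with 3.40 and 3.94. Fold enrichments at Gata3 were close to one another, with the highest peak at 3.78 in replicate 1 and 4.01 in replicate 2 (3.90 ± 0.167, SD, n = 2). The locus is shared with transcripts of other names, and the starts of Gm13256, 4930412O13Rik and 9230102O04Rik lay inside 3 of these regions, so RYBP there cannot be assigned to Gata3 alone. Of the 6 Gata3 starts, 3 were inside a region and the other 3 lay 9 to 522 bp from one.

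Of the cardiac and endodermal members, Gata4 (chr14:63817759-63890529, minus strand) had 7 merged regions, 4 of them in both replicates, and 28.0% of its locus covered. The regions ran from 15 bp upstream of the annotated 5′ end to 31932 bp downstream of it, and exons 3 to 7 of the reference transcript lay outside them. The widest region, chr14:63862929-63872023 of 9095 bp, held exon 1 and 3 closely spaced starts with 10.4 to 11.6 CpG per 100 bases, and its peaks reached 3.14-fold in replicate 1 and 4.08-fold in replicate 2. The highest peaks lay elsewhere. At exon 2, chr14:63858597-63860560 reached 4.17 and 5.40, and in the intron upstream of those 3 starts chr14:63873907-63875928 reached 4.56 and 5.38. Both exceeded 94.4% or more of replicate 2 peaks and 88.2% or more of replicate 1 peaks. A further region of 5608 bp covered the distal starts, whose windows held 2.40 and 0.400 CpG per 100 bases. The internal start of Gata4-003 lay 26153 bp from any region.

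Gata5 (chr2:180059838-180069404, minus strand) had a region of 3964 bp, chr2:180066991-180070954, over both of its starts and exons 1 and 2. Replicate 1 gave it a fold enrichment of 3.87, replicate 2 one of 4.44 (mean 4.16 ± 0.402, SD, n = 2), and the start of the overlapping gene Gm14318 lay inside it. The replicate peaks were displaced from each other, and 39.8% of the covered sequence at Gata5 was under peaks of both. A second region of 688 bp at the last exon came from replicate 1 alone, with 2.94.

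Gata6 (chr18:11052508-11085633, plus strand) had a region of 8880 bp that ran from 5422 bp upstream of its single start to 3457 bp downstream, over exons 1 and 2. Replicate 2 called it as 1 peak with a fold enrichment of 4.19, and replicate 1 as 3 separate peaks of 3.83, 3.10 and 3.91. The extent upstream of Gata6 rested on that single replicate 2 peak. It covered all of the upstream 5 kb, whereas the replicate 1 peaks covered 39.2%. In the fixed window around the 5′ end, Gata6 had 84.6% under merged regions, which is the replicate 2 peak, and 47.9% under the replicate 1 peaks. More of this window was covered than at 98.4% of genes in replicate 1 and 99.8% in replicate 2. The start of the lincRNA gene 1010001N08Rik lay in the same region, so its share in the signal cannot be told apart from that of Gata6. A region of 678 bp at exon 3 came from replicate 1 alone.

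The cofactor genes differed most from each other. Zfpm1 (chr8:124806039-124861146, plus strand) had 14 merged regions spread over its 60.1 kb locus, of which 6 were in both replicates, 7 in replicate 2 alone and 1 in replicate 1 alone. Its first start lay in a region of 3422 bp with fold enrichments of 3.51 and 4.13, where the replicate 1 peak began 42 bp downstream of the start. The strongest RYBP region of all 8 loci was at the other end of the gene. It spanned chr8:124855138-124862653, 49099 to 56614 bp from the start, and held exons 5 to 10 with the stop codon, 79.9% of it inside the locus and the rest past the annotated 3′ end. Exon 5 lay only under a separate replicate 1 peak of 3.17, and exon 6 only under the replicate 2 peak. The highest peak of the region reached 5.24 in replicate 1 and 6.65 in replicate 2 (5.95 ± 0.992, SD, n = 2), above 98.2% and 99.1% of all peaks. It ran from 52022 to 56614 bp in replicate 1 and from 50619 to 56053 bp in replicate 2. The −log10 q of these peaks, 12.2 and 16.2, was the highest at any member in each replicate, and the next were 5.57 and 8.73 at Gata4.

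Exons of Zfpm1 were covered to 91.9% and introns to 38.7% by merged regions. The exon share was similar in each replicate, at 83.2% and 89.0%, whereas the intron share was 16.0% in replicate 1 and 34.1% in replicate 2. The coding stretch of exon 10 printed above held 40 CpG in 250 bases (16.0 per 100) and 78.0% G and C, which is denser than any of the 24 upstream windows. It was picked as the densest stretch under the region, whereas the upstream windows have fixed positions, so the comparison favours it. The region as a whole had 3.39 CpG per 100 bases, below the median of 4.08 of all merged regions. Most other Zfpm1 peaks were low, with 17 of 20 under the median fold enrichment of their list, but they were not narrow as a class, with 9 of 20 under the median width. The 8 regions found in 1 replicate alone were 196 to 1713 bp wide, and 35.0% of the covered sequence at Zfpm1 was under peaks of both replicates, the lowest share of the 7 occupied members. Peaks on chromosome 8 had lower fold enrichments as a class, with medians of 3.03 and 3.34 against 3.29 and 3.60 over all chromosomes. Regions were also more frequent there, at 68.6% of its 1076 protein-coding loci against 57.0% of all loci. The chromosome held 1756 of the 22409 merged regions. The part of this in the number of Zfpm1 regions and in the low Zfpm1 peaks was not tested. The gene model Gm20388, a read-through model, spans the whole locus.

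Zfpm2 (chr15:40486588-40936138, plus strand), at 455 kb the longest member, had 1 region of 1981 bp, chr15:40485975-40487955, over its first start and exon 1. It was called in both replicates at nearly equal fold enrichment, with 3.73 and 3.72. This covered 0.436% of the locus, less than the median of all genes. In the fixed window around the 5′ end it covered 19.8%, more than at 86.8% of genes. A share of the locus falls with gene length by construction, and the window value was also the lowest of the 7 occupied members. The internal starts lay 8581 and 95338 bp from the region, and their windows held 0 and 0.800 CpG per 100 bases.

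**Figure D4:**
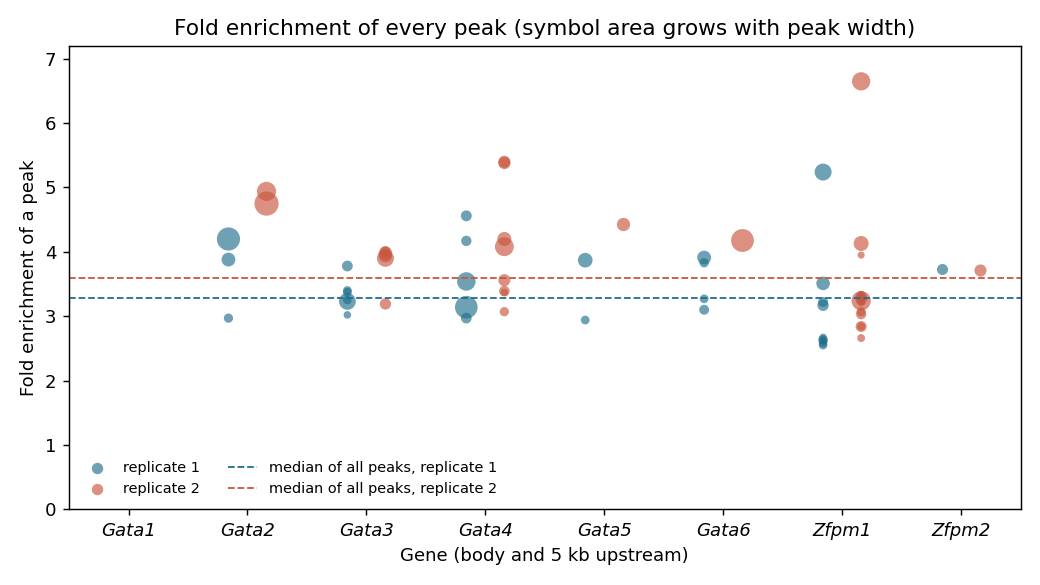
Fold enrichment of each of the 30 replicate 1 peaks (blue) and 31 replicate 2 peaks (red) at the 8 loci, with symbol area growing with peak width; dashed lines are the medians of all peaks of each replicate, 3.29 and 3.60. The highest points are the Zfpm1 peaks at 5.24 and 6.65, and most other Zfpm1 peaks lie below the lines.

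Peaks at the members were wider than peaks at large and had similar fold enrichments. There were 30 replicate 1 peaks and 31 replicate 2 peaks at these loci. The median fold enrichment of the replicate 1 peaks was 3.26, and all 14794 peaks of that list had 3.29. For replicate 2 it was 3.72, and all 18154 peaks had 3.60. In replicates 1 and 2 their median widths were 1170 bp and 1964 bp, compared with 766 bp and 763 bp over all peaks. Of the 32 merged regions at members, 21.9% were at least 4 kb wide, compared with 2.87% of all 22409 regions. Wide regions occurred at Gata2, Gata3, Gata4, Gata6 and Zfpm1.

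Replicates called the same members. An overlap of at least 1 bp with the other list was found for 86.7% of the 30 peaks of replicate 1, against 69.0% of all peaks in that list. In the other direction the shares were 67.7% of 31 peaks and 56.4% of all. Regions found in 1 replicate alone numbered 14 of 32, with 3065 bp in replicate 1 and 8510 bp in replicate 2 beside 83614 bp in regions found in both. They were 196 to 1713 bp wide, and the median of all merged regions was 766 bp. Regions found in both made up 56.2% of the 32 member regions, against 44.2% of all 22409 merged regions. They were counted whole, with stretches under a peak of 1 replicate only. Sequence under peaks of both made up 35.0% (Zfpm1) to 77.6% (Zfpm2) of the covered sequence of each occupied member. The highest peak was higher in replicate 2 at 6 of the 7 occupied members, as it was at 78.3% of all loci with peaks in both, so the same offset ran through the lists as a whole. The peak lists carry no read depth. The sequencing summary of the study lists more mapped reads for replicate 1, the list with fewer peaks, and the part of depth in the difference was not tested.

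Coverage also fell differently along the genes. Merged regions covered 93.0% of the upstream 5 kb of Gata2, 74.9% of its exons and all of its introns. Replicate 1 alone gave 64.7%, 53.2% and 79.4% there, and replicate 2 alone gave 93.0%, 74.9% and 91.0%. Upstream coverage differed most between replicates at Gata6, with 39.2% and 100%, followed by Zfpm1, with 11.3% and 44.8%. Gata4 had 0.300% of its upstream 5 kb covered and 38.2% of its exons, because its regions began at the annotated 5′ end and ran into the gene. That upstream sequence is counted from the most distal Gata4 start. The CpG-rich starts, at chr14:63864085 to chr14:63864108 on the minus strand, lay in a region that ran upstream of them to chr14:63872023. Gata3 likewise has its upstream 5 kb counted from its most distal start. At Gata3 the upstream, exon and intron shares were 13.0%, 35.2% and 21.4% in replicate 1 and 33.8%, 48.8% and 30.7% in replicate 2. At Gata5 they were 16.6%, 50.4% and 21.7% in replicate 1 and 31.0%, 26.7% and 1.76% in replicate 2, so that replicate 1 reached further into the gene. Pooled over the 8 loci, 39.9% of upstream sequence, 42.8% of exons and 9.83% of introns were under regions, and over all genes with a region these shares were 11.6%, 11.6% and 1.44%. For the 8 loci, replicate 1 alone gave 19.5%, 36.9% and 6.57%, and replicate 2 alone gave 39.4%, 39.3% and 8.27%. Exons were covered to a higher share than introns at 6 of the 7 occupied members in each replicate, Gata2 being the exception.

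Genes that work with the GATA and FOG proteins were read from lists drawn up with earlier results of these data known, and are given as counts, to be read against 57.0% of all loci with a region and a median covered share of 0.783% over all genes. Of 12 cardiac genes, 11 had a region and the median covered share was 38.4%, with Hand2 at 82.8% and Nkx2-5 at 79.7%, both heart transcription factors, and none at Nppa, which encodes a natriuretic peptide. Single replicates gave cardiac medians of 27.2% and 26.6%, and Hand2 had 82.8% in replicate 1 and 55.2% in replicate 2. Of 12 blood genes, 11 had a region with a median of 10.3%, led by Tal1 at 39.4% and Lyl1 at 35.7%, which encode related helix-loop-helix factors, and Nfe2, an erythroid and megakaryocytic factor, had none. The blood median was 4.29% with replicate 1 alone and 7.25% with replicate 2 alone. Of 10 endodermal genes, 7 had one with a median of 4.75%. The endodermal values ran from 92.5% at Foxa1 and 71.5% at Foxa2, both forkhead factors, to none at Afp, Hnf4a and Ttr, and Foxa1 had 89.0% in replicate 1 and 56.8% in replicate 2. Of 12 corepressor genes of the FOG proteins, 10 carried a region, 8 of them with a replicate 1 peak. Their median share over all 12 was 3.03%, against 0.783% over all genes, and 1.39% with replicate 1 alone. The highest shares were 14.4% at Mbd3 (14.2% and 7.31% in replicates 1 and 2) and 6.34% at Mta1 (3.68% and 5.64%), both of the NuRD complex. Hdac1 and Mbd2 had no region. Other genes with a GATA-type zinc finger had 3 of 5 with a region and a median of 0.916% (0 with replicate 2 alone), with Gatad1 at 4.22% from replicate 1 alone, Gatad2a at 2.32% and none at Gatad2b and Zglp1. In all, 42 of the 51 listed genes had a region, and their median covered share was 5.28%, with 3.25% in replicate 1 and 5.23% in replicate 2. Covered share falls with locus length by construction, and no fixed-window share was taken for the lists. The genes named as highest in the cardiac and endodermal lists have short loci. Hand2, Nkx2-5, Foxa1 and Foxa2 had 8535, 7902, 10491 and 9093 bp, against a median of 20532 bp over all genes.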

How the data were processed

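RYBP ChIP-seq was performed on 2 ChIP and 2 input samples, and the labels gave both group and replicate number. The labels give day 3.75, whereas the study's methods place the RYBP experiment slightly later, and the design text of the series names SCL where its title and the antibody name RYBP. Paired-end reads were aligned by the authors to mm9, duplicates were removed, and broad peaks were called in each replicate separately. The submitters' processing notes name Bowtie 1.1.2b, MACS2 2.0.10 and bedtools. The deposited peak lists hold other values besides positions, namely a fold enrichment (a linear ratio), −log10 of the p-value and of the q-value, and a score that was not used, all computed by the authors. The deposited merged list holds positions without values and was identical to the union of both lists for all 22409 regions once replicate 2 starts were moved by 1 bp, so starts are uncertain by 1 bp. The files hold no depth, and the study lists mapped reads per library, which entered no value here.

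Coordinates are 1-based mm9, and the last region of each chromosome that held any lay within its NCBIM37 length. Loci, starts and exons came from GENCODE, where the reference transcript was the one with the longest coding sequence. Overlap required at least 1 bp, and covered share was the percent of a locus under peaks or regions. Interval code (Python 3.11.15) was tested on simulated intervals, with 0 wrong answers in 400 queries, and figures were drawn with matplotlib 3.10.9. Members, lists, thresholds and named genes were chosen with earlier results of these data known. The text names all 8 members, and from each list the 2 genes of largest covered share and the genes with no region. Alternatives were stricter peak thresholds, single replicates, regions found in both replicates, and other locus and start windows. Single-replicate shares of features and windows, and start-base shares over all genes, were chosen after seeing the data. Spread is the SD of the 2 replicates, which the labels do not trace to separate cultures.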

Additional observations from a re-analysis of the deposited data

How the results depend on the processing

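The counts of members with a region, with a region found in both replicates and with a region at a start stayed at 7 of 8 under every alternative run, and no member gained or lost its call. The median covered share of 29.6% became 26.5% with peaks of −log10 q of at least 2, 26.7% with a fold enrichment of at least 3, 25.6% with regions found in both replicates, 27.8% with 10 kb upstream and 48.1% in 5 kb on each side of the 5′ end. Using the peaks of 1 replicate alone gave 20.6% to 22.2%, a drop that follows from using fewer peaks than the union. The gene body alone gave 30.7%, but took Gata6 from 24.0% to 12.5%. In 5 kb on each side of the 5′ end the mean highest fold enrichment at Zfpm1 was 3.82 in place of 5.95, since its strongest region lies at the other end of the gene. No paired analysis was possible because no result came from a test and because input, whose replicate numbers match those of the ChIP samples, was not analysed here. With 2 peak lists, no read counts and no input, weak occupancy under the threshold of the caller was not detectable.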

Other observations

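Sequence within 20 kb of the loci, which entered no value above, also held RYBP regions at some members. Upstream of Gata3, chr2:9817010-9818950 lay 348 bp beyond the locus, with fold enrichments of 3.42 in replicate 1 and 3.93 in replicate 2. Upstream of Gata5, chr2:180077927-180079086 lay 3522 bp beyond the locus, with 3.21 and 3.49. Zfpm1 had a pair of such regions upstream that were found in both replicates, of 1737 bp at 6781 bp (3.03 and 3.47) and of 6004 bp at 11524 bp (2.94 in each replicate). The 3 regions downstream of Gata2 each came from 1 replicate, with 2.94 to 3.76. No region lay within 20 kb of the loci of Gata1, Gata4, Gata6 or Zfpm2.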
